A study of Homo sapiens with 4 samples.

Results

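The genes described are the 10 that encode the core proteins of small-RNA silencing: the 4 Argonautes (AGO1, AGO2, AGO3 and AGO4), the nuclease Dicer (DICER1) with its double-stranded RNA-binding partners TRBP (TARBP2) and PACT (PRKRA), and the 3 GW182 scaffolds (TNRC6A, TNRC6B and TNRC6C). They were chosen by symbol, as the proteins that handle a transfected siRNA, though with earlier results of these data known. All 10 were found among the 25027 genes of the expression tables, on 22 RefSeq transcript entries, and all 10 passed the filter on low values, an average over the 4 libraries of 1 FPKM or more. The samples were RPE1, a telomerase-immortalised line from human retinal pigment epithelium, which carried no other stated alteration. The cells received 10 nM of a Stealth siRNA with the lipid reagent Lipofectamine RNAiMAX, either against SAF-A (scaffold attachment factor A, a nuclear RNA-binding protein encoded by HNRNPU) or a negative control, and RNA was collected 24 h or 48 h later. Each of these 4 conditions was done once, with a single siRNA sequence against SAF-A, so no difference has a replicate check and no p-value is given. All 4 conditions carried a transfected siRNA, and an untransfected condition was not analysed here.

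In this pathway Dicer cuts hairpin precursors into short duplexes, with TRBP or PACT bound to it. A duplex is loaded into an Argonaute, 1 strand is kept as the guide, and its bases 2 to 8, the seed, lead the search for target RNAs. AGO2 is the human Argonaute best known for cutting a fully paired target, as an siRNA requires. With partial pairing, the usual case for microRNAs, Argonautes recruit a GW182 protein, which binds poly(A)-binding protein and calls in the PAN2-PAN3 and CCR4-NOT deadenylases, after which the decapping enzymes act.

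The sequences that bear on these genes are the transfected siRNA itself and 2 microRNAs known for their place in the pathway. The let-7 family is a classic microRNA family of differentiated cells, and miR-103a is known to target DICER1. The sense strand of the siRNA is given as in the submitters' protocol, which mixes T and U, and the antisense strand is its complement in RNA letters. Capitals mark bases 2 to 8 of each microRNA and of the antisense strand, and in the sense strand the 7 letters that pair with them. The microRNAs are from RefSeq (table of GRCh38.p14).
SAF-A siRNA, sense strand: ccugggaaucgtggcggATATAATa
SAF-A siRNA, antisense strand: uAUUAUAUccgccacgauucccagg
hsa-let-7a-5p: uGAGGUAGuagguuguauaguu
hsa-miR-103a-3p: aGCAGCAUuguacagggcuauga

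The letters that pair with these seeds are ATATAAT for the antisense strand, CTACCTC for let-7a and ATGCTGC for miR-103a, and they were searched in the mRNA strand of the 3′ UTR of each gene's most abundant coding transcript. TNRC6A held ATATAAT at 2 places in a 3′ UTR of 2419 nt, AGO4 held it at 1 place in 4284 nt, and the other 8 genes held none. Among 3′ UTRs within 20% of the length of that of TNRC6A, 27.8% held the letters at least once and 6.93% held them 2 or more times. Among those of the length of AGO4's, 40.9% held them. The 3′ UTRs searched were short in AGO2 (879 nt), AGO3 (717), PRKRA (683) and TARBP2 (283). Of 3′ UTRs of like length, only 10.2%, 8.71%, 9.17% and 3.14% held the letters, in that order. Those of AGO1, DICER1, TNRC6B and TNRC6C had 3990 to 12567 nt, with shares of 39.5% to 81.2% at like length. The 3 windows are shown because no other member held the letters. They are 30 bases each, on the plus strand of GRCh37 (hg19), with the 7 letters in capitals.
TNRC6A, chr16:24836737-24836766: aatttcttcagATATAATaaaccatgactt
TNRC6A, chr16:24837440-24837469: ctttgagtagtATATAATtcataactgcgt
AGO4, chr1:36322721-36322750: caagtgggaaaATATAATccactgtttaac

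DICER1 held ATGCTGC, the letters for miR-103a, at 5 places in a 3′ UTR of 4270 nt. Of 758 3′ UTRs of like length, that of DICER1 included, 2 (0.264%) held 5 or more, and 30.7% held at least 1. The windows are given on the minus strand of chromosome 14, from 5′ to 3′ along the transcript, because the shorter DICER1 transcript described below ends before all 5.
DICER1, chr14:95555783-95555812: acacctaaaatATGCTGCagattttataat
DICER1, chr14:95555182-95555211: tgcttcgtggaATGCTGCatttatatgtaa
DICER1, chr14:95553978-95554007: cagtcctaactATGCTGCgttttataatag
DICER1, chr14:95552707-95552736: tttaccatcacATGCTGCagctgtttttta
DICER1, chr14:95552655-95552684: atacagtaatcATGCTGCagaaatttgcag

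ATGCTGC was also found in TNRC6B (3 places), AGO4 (2), AGO1 (1) and TARBP2 (1), and the let-7 letters in AGO1 (1) and TARBP2 (1). Over all 9958 3′ UTRs searched, 17.3% held ATATAAT, 11.9% held ATGCTGC and 8.72% held CTACCTC. The letters that pair with bases 2 to 8 of the siRNA's sense strand, TTCCCAG, were in DICER1 (2 places), AGO3, AGO4 and TNRC6B (1 each) and in 17.6% of all 3′ UTRs. Which strand the cells loaded is not given in the sources used here. Such a match is a description of the letters, not a site or a cause. The longest run shared between the siRNA and a member's transcript was 10 bases, in AGO4, and 9 in TNRC6A and TNRC6C. Of 10374 transcripts searched, 9.18% shared at least 9 bases and 1.78% at least 10, while HNRNPU shared all 25.

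HNRNPU, the targeted gene, was at 91.2 FPKM with control siRNA and 10.4 after knockdown at 24 h, while the 48 h pair was 84.6 and 9.24. FPKM counts fragments scaled by transcript length and by mapped reads, so levels of different genes can be compared. These values were 11.4% (95% interval 10.9 to 11.97) and 10.9% (8.57 to 13.7) of control. The deposited values imply 28083822, 30701282 and 28586051 mapped reads for the first 3 libraries (control 24 h, then SAF-A 24 h, then control 48 h), but 1216740 for the SAF-A 48 h library. A member's level therefore rested on about 286 to 4434 reads in the first 3 libraries and on 4 to 105 reads in the SAF-A 48 h library. Of 11 pigment epithelium markers only MITF (4.23 to 9.01 FPKM) and OTX2 (2.16 to 3.77) passed the low-value filter, and RPE65 and TTR were listed at 0 in all 4 libraries. All 6 markers of cultured epithelial and mesenchymal cells passed it (VIM at 1586 to 3312 FPKM), and of 9 markers of other cell types none did, the highest being PTPRC at 0.347 FPKM. In bulk RNA, fewer cells that express a gene and less of its RNA per cell cannot be told apart.

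The order of the members by level was the same in the first 3 libraries except for TNRC6A and for AGO1 and AGO3, which exchanged places. TARBP2 was highest in all 4 libraries and TNRC6C lowest in all 4. TNRC6A ranked 3rd with control siRNA at 24 h, 5th with SAF-A siRNA at 24 h, 2nd with control siRNA at 48 h and 4th with SAF-A siRNA at 48 h. At 24 h with control siRNA, AGO2, TNRC6A and DICER1 were neighbours whose deposited 95% intervals overlapped, as did AGO3 with AGO1 and AGO4 with TNRC6C. In the SAF-A 48 h library each gene from rank 4 to rank 10 overlapped with the next. The 10 levels summed to 89.5 FPKM in control 24 h, 85.6 in SAF-A 24 h, 99.6 in control 48 h and 82.3 in SAF-A 48 h.

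**Figure D1:**
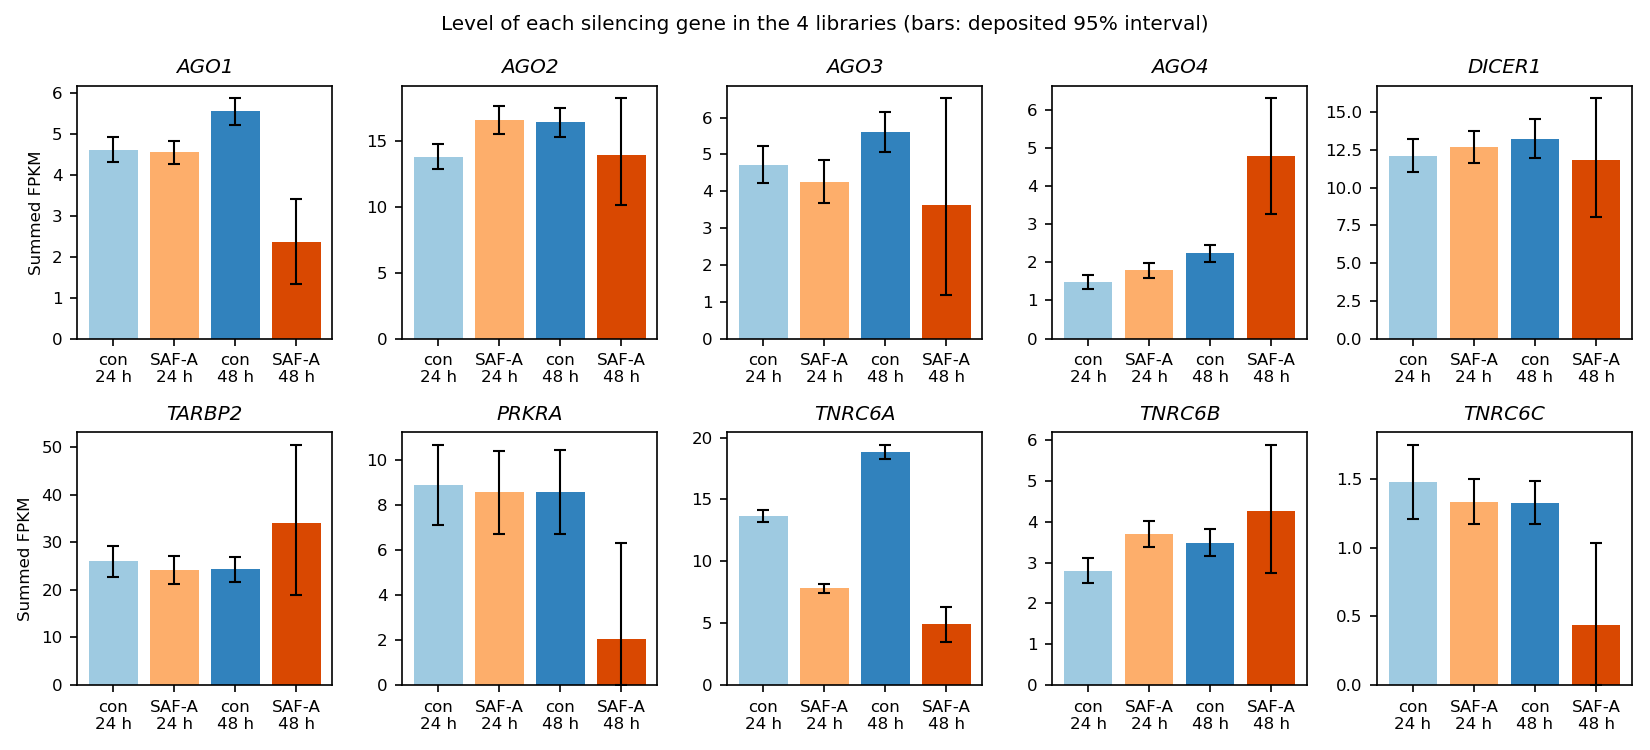
Level of each of the 10 silencing genes in the 4 libraries (FPKM, summed over a gene's RefSeq transcripts), with bars for the deposited 95% interval within a library. TARBP2 is highest throughout, and TNRC6A is at 13.6 and 18.9 FPKM in the control libraries against 7.80 and 4.90 in the SAF-A libraries.

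A difference was called when log2(FPKM + 1) differed by at least 1, a change of at least 2-fold. At 24 h none of the 10 genes was called between SAF-A and control siRNA, where 1.83% of the 11631 genes tested were called higher and 1.25% lower. Among the 11053 genes with transcripts of at least 300 nt, as all members have, the shares were smaller, 0.389% and 0.244%. The members' median difference in log2(FPKM + 1) was -0.03, against -0.06 over all genes tested. At 48 h, 0 members were called higher and 2 lower (TNRC6A and PRKRA), against 14.2% of all genes higher and 20.1% lower, so the members' count is near the background. With 0.1 in place of 1 added to each level, AGO1 and TNRC6C were also lower, which made 4, against 25.2% of all genes, and AGO4 was higher. The median at 48 h was -0.37 for the members and -0.12 over all genes. The deposited intervals did not overlap for 3 members at 24 h, where 26.5% of all genes had intervals apart, and for 5 at 48 h, where 48.5% did. The 48 h comparison rests on the shallow SAF-A library throughout. Culture markers also differed in it: KRT8 was at 15.4 against 63.9 FPKM, KRT18 at 23.3 against 229, and VIM at 3312 against 1586, and the part of such a difference in the members' values was not tested.

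**Figure D2:**
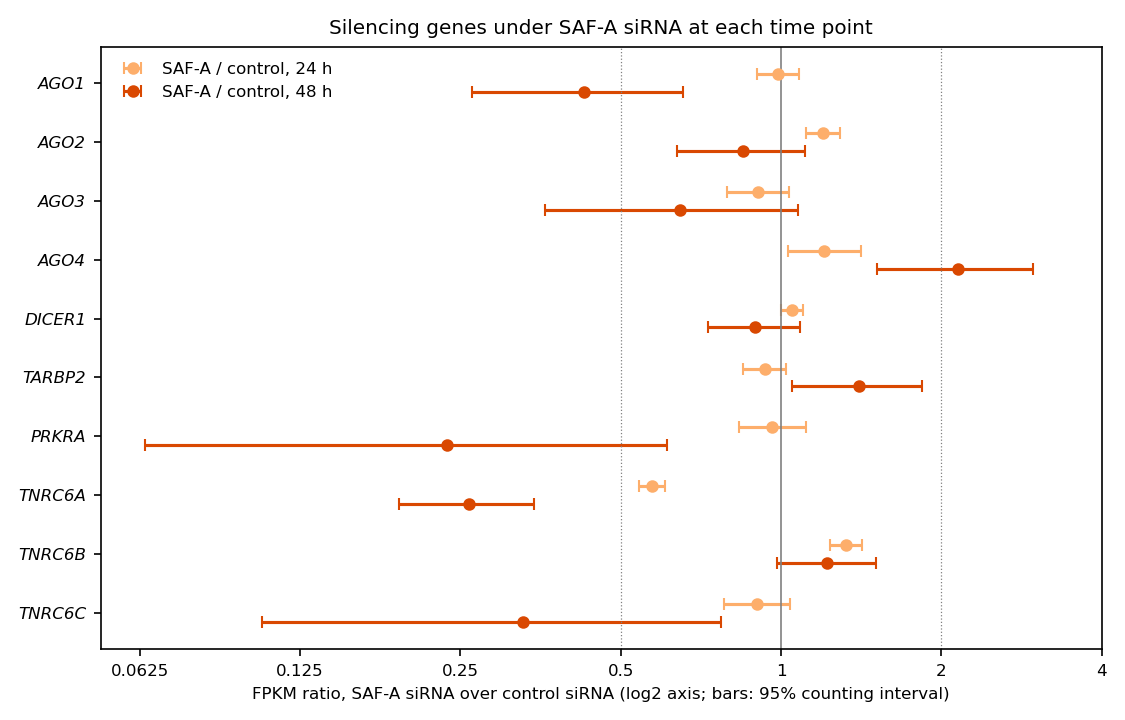
Ratio of FPKM under SAF-A siRNA to FPKM under control siRNA for each silencing gene at 24 h and 48 h, on a log2 axis with dotted lines at 2-fold. Bars are 95% intervals from estimated reads and cover counting error only. TNRC6A lies below 1 at both times (57.3% and 26.0% of control), and AGO4 above 1 at both (121% and 215%).

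The GW182 scaffold TNRC6A had the largest difference among the members at 24 h. At 48 h its difference in log2(FPKM + 1), -1.75, was close to that of PRKRA, -1.66, which was the larger of the pair as a plain ratio, with a pseudocount of 0.1 (-2.03 against -1.92) and on the scale of genes of at least 300 nt (-2.09 against -2.08). TNRC6A was at 13.6 FPKM (deposited 95% interval 13.1 to 14.1) with control siRNA at 24 h, 7.80 (7.45 to 8.16) with SAF-A siRNA at 24 h, 18.9 (18.3 to 19.4) with control siRNA at 48 h and 4.90 (3.50 to 6.31) with SAF-A siRNA at 48 h. Both SAF-A libraries lay below both control libraries, with no overlap. TNRC6A, the founding GW182 protein of human cells, was at 57.3% of control at 24 h (counting interval 54.1 to 60.6) and at 26.0% at 48 h (19.2 to 34.4). Its differences were -0.73 and -1.75 in log2(FPKM + 1). Of 11053 genes with transcripts of at least 300 nt, 57 (0.516%) had a lower difference than TNRC6A at 24 h and 624 (5.65%) at 48 h. The 48 h value rested on 49 reads in the SAF-A library and 4434 in the control library.

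TNRC6A is also the member with 2 copies of ATATAAT in its 3′ UTR, shown above. Among other genes with a 3′ UTR of like length, the 938 without the letters had a median difference of -0.06 at 24 h and -0.19 at 48 h. The 271 with 1 copy had medians of -0.07 and -0.28, and the 90 with 2 or more had medians of -0.09 and -0.54. The share of genes below 0 was 63.4%, 66.8% and 72.2% at 24 h for these groups in turn, and 58.8%, 58.7% and 75.6% at 48 h. The 48 h values rest on the shallow SAF-A library, and no other set of letters was compared in this way. AGO4, the only other member that held ATATAAT (1 copy), was higher with SAF-A siRNA, at 121% of control at 24 h and 215% at 48 h. The part of these letters in the TNRC6A and AGO4 levels was not tested.

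TNRC6B, a second GW182 protein, was at 2.80 FPKM (2.49 to 3.10) with control siRNA and 3.70 (3.38 to 4.03) with SAF-A siRNA at 24 h. At 48 h it was at 3.49 (3.15 to 3.82) and 4.26 (2.73 to 5.89). The 24 h intervals did not overlap and the 48 h intervals did. The SAF-A level was 132% of control at 24 h (124 to 142) and 122% at 48 h (98.1 to 151). The 24 h excess was below 1.5-fold, yet TNRC6B stood higher in the list of genes than 94.5% of them.

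TNRC6C, the third, was the scarcest, at 1.48 (1.21 to 1.75), 1.33 (1.17 to 1.498), 1.32 (1.17 to 1.48) and 0.434 FPKM (0.001 to 1.03) in the 4 libraries in turn. The first 3 libraries overlapped, and the last rested on 5 reads. The SAF-A level was 90.0% of control at 24 h (78.1 to 104) and 32.8% at 48 h (10.6 to 77.3). An entry on the opposite strand, NR_040071, shared 439 exon bases (4.49%) with TNRC6C and was listed at no more than 0.0546 FPKM.

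The make-up of the GW182 family therefore differed between the siRNAs. TNRC6A made up 76.1% of the summed GW182 level with control siRNA at 24 h and 60.8% with SAF-A siRNA, and 79.7% and 51.1% at 48 h. TNRC6B made up 15.6% and 28.8% at 24 h, and 14.7% and 44.4% at 48 h. The family sum was 17.9 FPKM in control 24 h, 12.8 in SAF-A 24 h, 23.7 in control 48 h and 9.60 in SAF-A 48 h. A ratio within a library needs no scaling between libraries: TNRC6A to TNRC6B was 4.87 (counting interval 4.57 to 5.19) in control 24 h, 2.11 (1.98 to 2.24) in SAF-A 24 h, 5.41 (5.12 to 5.72) in control 48 h and 1.15 (0.796 to 1.64) in SAF-A 48 h. The intervals of the SAF-A libraries lay below those of the control libraries, and such a ratio shows unequal levels, not which gene moved.

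**Figure D3:**
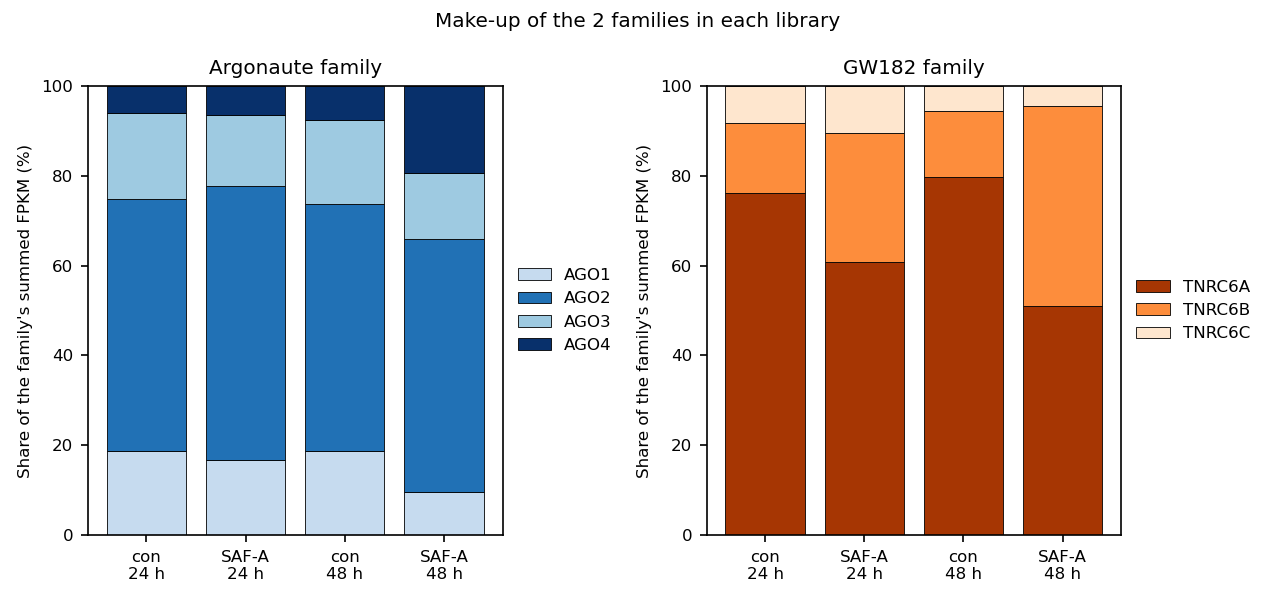
Share of each gene in the summed FPKM of the Argonaute family and of the GW182 family in each of the 4 libraries, stacked in percent from 0. Every bar holds the whole family, so bar height does not show the family's level. TNRC6A is 76.1% of the GW182 sum with control siRNA and 60.8% with SAF-A siRNA at 24 h, while AGO2 is 55.1% to 61.0% of the Argonaute sum in all 4 libraries.

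Among the Argonautes, AGO2 was the most abundant in every library. It was at 13.8 FPKM (12.9 to 14.8) with control siRNA at 24 h, 16.6 (15.6 to 17.7) with SAF-A siRNA at 24 h, 16.5 (15.4 to 17.6) with control siRNA at 48 h and 14.0 (10.1 to 18.3) with SAF-A siRNA at 48 h. The 24 h pair did not overlap and the 48 h pair did. The SAF-A level was 120.0% of control at 24 h (112 to 129) and 84.9% at 48 h (63.8 to 111). The 24 h difference of 0.25 was about as large as that between the control libraries of 24 h and 48 h, 0.23. AGO2 made up 56.2%, 61.0%, 55.1% and 56.4% of the Argonaute sum in the 4 libraries in turn.

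AGO4, AGO1 and AGO3 lie in that order on the plus strand of chromosome 1: AGO4 at chr1:36273828-36323490 (18 exons), AGO1 at chr1:36348810-36389899 (19 exons) and AGO3 at chr1:36396683-36522063, with 25319 and 6783 bp between them (GRCh37). These neighbours differed in direction at 48 h. AGO4 was at 1.48 FPKM (1.31 to 1.66), 1.79 (1.60 to 1.97), 2.24 (2.02 to 2.45) and 4.795 (3.27 to 6.32) in the 4 libraries in turn. Its highest value, in SAF-A 48 h, overlapped with no other library, though it rested on 40 reads. The SAF-A level was 121% of control at 24 h (103 to 141) and 215% at 48 h (151 to 297), a difference of 0.84 that missed the call because 1 was added to each level.

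AGO1 was at 4.62 FPKM (4.32 to 4.92), 4.56 (4.27 to 4.85), 5.56 (5.23 to 5.89) and 2.37 (1.34 to 3.41) in the same order. The 24 h pair overlapped, and the SAF-A 48 h value lay below the other 3, on 21 reads. It was 98.6% of control at 24 h (90.2 to 108) and 42.7% at 48 h (26.3 to 65.6). The small 24 h difference of -0.02 changed sign, to 0.05, when libraries were centred on their median difference.

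AGO3 was at 4.71 FPKM (4.22 to 5.22), 4.26 (3.67 to 4.85), 5.60 (5.07 to 6.16) and 3.63 (1.18 to 6.53), with overlap between siRNAs at both times. Its SAF-A level was 90.5% of control at 24 h (79.3 to 103) and 64.8% at 48 h (36.0 to 108). The ratio of AGO4 to AGO1 within a library was 0.321 in control 24 h, 0.392 in SAF-A 24 h, 0.402 in control 48 h and 2.02 (1.16 to 3.61) in SAF-A 48 h. AGO4 exceeded AGO1 in the last library only, and its share of the Argonaute sum there was 19.4%, against 6.02% to 7.49% in the other 3. The Argonaute sum itself stayed between 24.7 and 29.8 FPKM.

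Dicer differed little in level. DICER1 (chr14:95552565-95623759, minus strand) was at 12.1 FPKM (11.01 to 13.2), 12.7 (11.6 to 13.8), 13.2 (11.9 to 14.5) and 11.8 (8.07 to 15.9) in the 4 libraries in turn. All 4 intervals overlapped. The SAF-A level was 105% of control at 24 h (100.05 to 110) and 89.4% at 48 h (72.9 to 109). The 24 h difference of 0.06 became -0.11 when each library was rescaled to TPM, a unit that sums to the same total in each library.

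Its 2 partners diverged at 48 h. TARBP2 (chr12:53894705-53900215), whose product TRBP helps load the duplex, was at 26.0 FPKM (22.7 to 29.3), 24.2 (21.3 to 27.2), 24.3 (21.7 to 27.0) and 34.1 (19.0 to 50.6), and these intervals overlapped. The SAF-A level was 93.2% of control at 24 h (85.0 to 102) and 140% at 48 h (105 to 184). PRKRA (chr2:179296141-179315958), whose product PACT also activates the kinase PKR, was at 8.88 FPKM (7.09 to 10.7), 8.55 (6.70 to 10.4), 8.56 (6.69 to 10.4) and 2.02 (0 to 6.31).

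The first 3 PRKRA values overlapped closely, and the last lay below them on 4 reads. PRKRA was at 96.3% of control at 24 h (83.4 to 111), a difference of -0.05 that turned to 0.01 with centring on the median. At 48 h it was at 23.6% (6.40 to 61.0), which was called lower with a difference of -1.66. The ratio of TARBP2 to PRKRA was 2.93, 2.83 and 2.84 in the first 3 libraries and 16.9 (6.23 to 64.1) in SAF-A 48 h.

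DICER1 was the member with a called difference in isoform use, which came only in comparisons with the SAF-A 48 h library, where it had 105 reads. Isoform use was compared as the sum of absolute differences in transcript shares divided by 2, in genes that had more than 1 transcript and reached 5 FPKM in each library, and 0.3 or more was counted as shifted. For SAF-A against control siRNA, 0 of 4 such members were shifted at 24 h, where 9.29% of 3745 genes were, and 1 of 3 at 48 h, where 38.6% of 3383 genes were. That member was DICER1, with 0.398 at 48 h and 0.0082 at 24 h, and with 3 members compared the count is near the background.

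NM_001271282, a DICER1 transcript of 6174 nt that ends before the 5 ATGCTGC letters, made up 17.0% of the DICER1 level in control 24 h, 17.5% in SAF-A 24 h, 27.6% in control 48 h and 67.4% in SAF-A 48 h. In FPKM these were 2.06 (1.74 to 2.38), 2.22 (1.90 to 2.54), 3.66 (3.23 to 4.08) and 7.98 (5.55 to 10.4). The deposited intervals of both 48 h values lay above those of both 24 h values and apart from each other. Of the longer transcripts, NM_030621 made up 61.8%, 62.1%, 33.0% and 32.6%, and NM_177438 made up 21.2%, 20.4%, 33.1% and less than 0.01%. Shares in the last library rested on 58 reads for NM_001271282 and 47 for NM_030621, and Cufflinks assigns reads that transcripts share by a model.

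TNRC6B had NM_015088 at 77.8%, 84.9%, 82.6% and 43.6% of its level in the 4 libraries, and NM_001162501 at 16.9%, 12.9%, 12.8% and 56.4%, below the minimum of 5 FPKM for a call. TARBP2 kept NM_004178 as its main transcript, at 73.7% to 85.1%. TNRC6C, all below 1.5 FPKM, was split 52.2% to 47.8% between NM_018996 and NM_001142640 in control 24 h, while NM_001142640 held 99.04% in SAF-A 24 h and 99.9% in control 48 h. In SAF-A 48 h the order was the other way, with NM_018996 at 98.5% and NM_001142640 at 1.55%, on 5 reads. In PRKRA, NM_001139517 held 4.58% in control 24 h (19 reads), 19.3% in SAF-A 24 h (87) and 8.15% in control 48 h (34). The 24 h shift of PRKRA, 0.169, was below 0.3. AGO3 had NM_177422 at 0 reads in both control libraries, 28 in SAF-A 24 h (6.60% of its level) and 2 in SAF-A 48 h (16.6%). AGO1, AGO4 and TNRC6A had 1 deposited transcript each, so no shares could be compared.

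**Figure D4:**
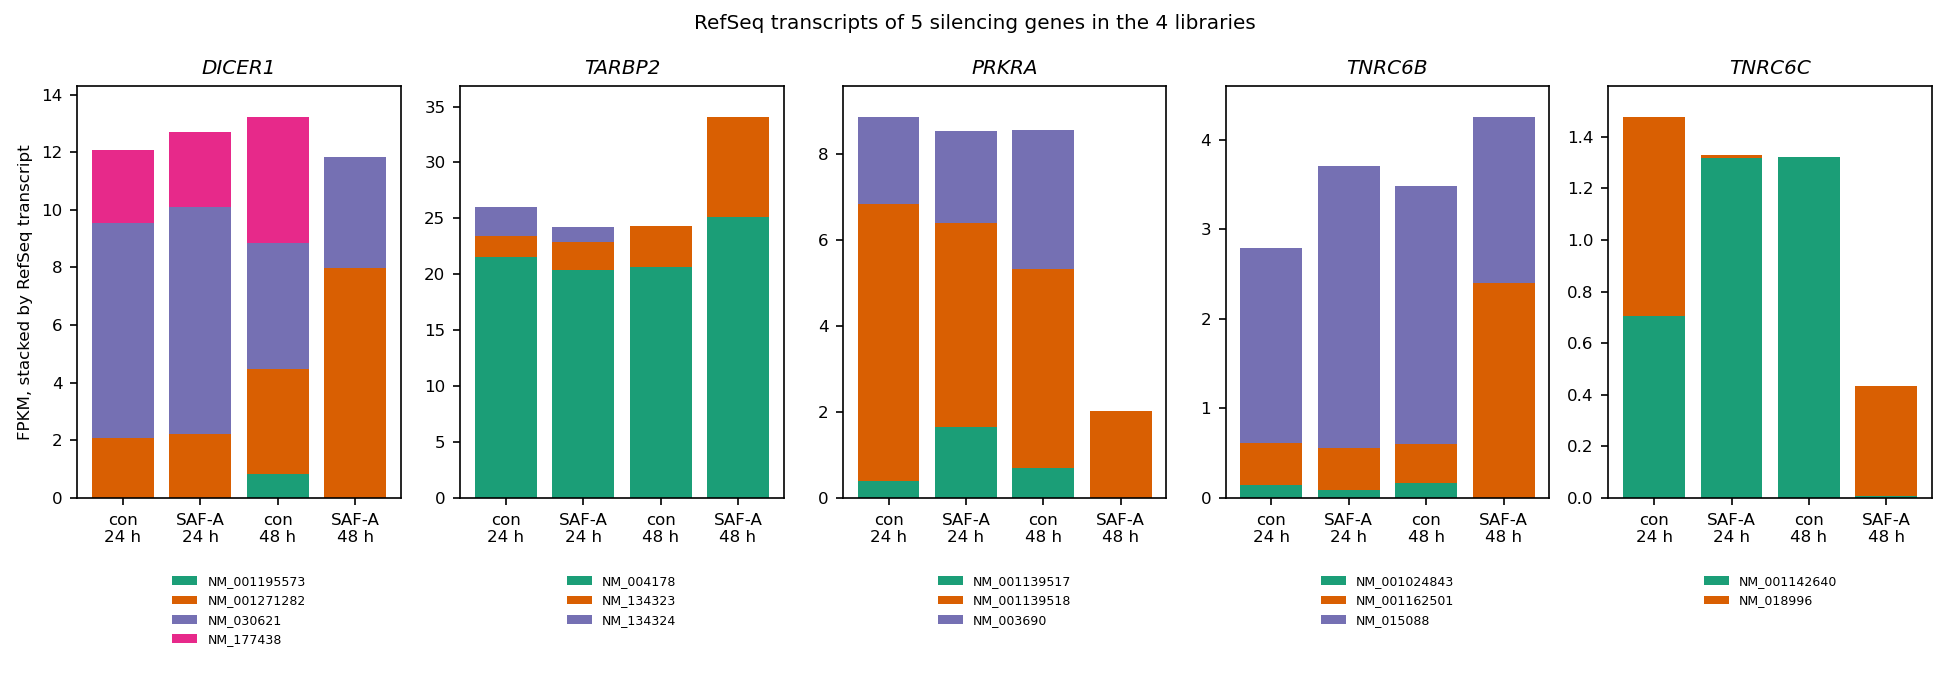
FPKM of each RefSeq transcript, stacked per gene from 0, for 5 of the silencing genes with more than 1 RefSeq transcript (con is control siRNA). AGO2 and AGO3, which also have more than 1, are not drawn. In DICER1 the 6174 nt transcript NM_001271282 goes from 17.0% in control 24 h to 67.4% in SAF-A 48 h, while the summed level stays between 11.8 and 13.2 FPKM.

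Levels also differed with time under control siRNA. Between 24 h and 48 h under control siRNA, 0 members were called, against 1.79% of all genes higher and 1.36% lower, and 5 had intervals apart, against 31.1%. Among genes of at least 300 nt the called shares were 0.561% and 0.425%. The median was 0.22 for the members and 0.03 over all genes. All 4 Argonautes were higher at 48 h, with AGO4 at 151% of its 24 h level (129 to 175) and AGO1, AGO2 and AGO3 at 119% to 120.3%. TNRC6A was at 138% (132 to 145) and TNRC6B at 125% (116 to 134). In isoforms, 0 of 4 members were shifted, against 9.74% of 3777 genes, and DICER1 reached 0.287.

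Under SAF-A siRNA, 1 member (AGO4) was called higher at 48 h than at 24 h and 1 (PRKRA) lower, against 15.1% and 17.8% of all genes, and 5 had intervals apart, against 47.3%. AGO4 was at 268% of its 24 h level (189 to 372), AGO1 at 52.1% (32.1 to 79.999) and TNRC6A at 62.8% (46.3 to 83.3). The members' median was -0.21, against -0.02 over all genes. DICER1 had an isoform difference of 0.499, the 1 shifted among 3 members compared, against 38.4% of 3351 genes. The siRNA and time comparisons share libraries, so they are not independent of each other.

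The rest of the pathway was described with 7 lists of 80 tested genes that act before, with or after the members, chosen for their roles. At 24 h none of the 80 was called, and their median was -0.10. At 48 h 4 were higher and 11 lower, with a median of -0.13, where 14.2% of all genes were higher and 20.1% lower, both larger shares than in these lists. The microprocessor and export list (10 genes), which makes the hairpins that Dicer cuts, had medians of -0.16 at 24 h and -0.27 at 48 h. RAN, the GTPase of nuclear export, was its 1 called gene at 48 h, at 155 against 534 FPKM, while the RNA helicase DDX17 was at 1.39 times control. At 24 h SRRT, which links the cap-binding complex to the microprocessor, was at 0.809 of control.

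Of these lists, the chaperones that load duplexes into Argonautes held the most called genes. Of 12, 0 were higher and 6 lower at 48 h, where 14.2% of all genes were higher and 20.1% lower. Their median was -0.73 at 48 h, after a median of -0.12 and no call at 24 h. The 48 h values rest on the shallow SAF-A library. HSP90AB1, the constitutive HSP90, was at 99.4 FPKM with SAF-A siRNA against 348 with control siRNA at 48 h, while HSPA4, an HSP70 relative, was at 194 against 109. The other 5 called genes were HSP90AA1, HSPA8, PTGES3, FKBP4 and FKBP5. At 24 h the largest difference downward was in FKBP5, an HSP90 co-chaperone, at 0.790 of control, and the largest upward in DNAJA2, an HSP40, at 1.02.

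The lists also covered the deadenylases that GW182 proteins recruit. CCR4-NOT (10 tested genes) had medians of -0.11 and -0.23 and 2 genes lower at 48 h, CNOT10 at 4.87 against 10.8 FPKM (ratio 0.451, counting interval 0.251 to 0.749) and the deadenylase CNOT6L at 0.861 against 3.88. CNOT9, a core subunit, was at 1.49 times control at 48 h. At 24 h CNOT2 was at 0.791 of control and CNOT8, a deadenylase, at 1.01. PAN2-PAN3 with the poly(A)-binding proteins (9 genes) had medians of -0.01 and -0.38, and the cytoplasmic poly(A)-binding protein PABPC1 was at 0.757 of control at 48 h, while BTG1, an adaptor of the deadenylases, was at 1.92 times control (1.64 to 2.24). At 24 h BTG1 was at 1.07 and the nuclear poly(A)-binding protein PABPN1 at 0.774. The 1 called gene of that list, the antiproliferative adaptor TOB1, was at 0.632 against 2.68 FPKM. Of 15 decapping and decay genes, 1 was called at 48 h, EIF4E2, a cap-binding repressor, at 152 against 55.1 FPKM. DCP2, the decapping enzyme itself, was at 14.2 FPKM with SAF-A siRNA and 8.62 with control siRNA at 24 h, a ratio of 1.65 (1.57 to 1.74). GIGYF2, a partner of EIF4E2, was at 0.842 at 24 h, and LSM14A, a P-body protein, at 0.761 at 48 h (0.507 to 1.10).

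Of 18 other Argonaute partners, 2 were higher and 1 lower at 48 h, after a median of -0.10 at 24 h. PUM2, an RNA-binding repressor, was at 11.3 against 4.08 FPKM, and IPO8, an importin that binds Argonautes, at 3.68 against 12.3. FXR1, a relative of the fragile X protein, was at 14.9 against 10.3 FPKM at 24 h (ratio 1.44, 1.37 to 1.52) and, as the other gene called higher, at 23.0 against 10.2 at 48 h. WTIP, a LIM protein, was at 0.815 of control at 24 h. Among 6 tested genes of microRNA uridylation and let-7 control, 1 was called, the uridylyltransferase TUT7, at 17.6 against 5.97 FPKM at 48 h and at 1.12 times control at 24 h. TUT1 was at 0.872 of control at 24 h, and the RNA-editing enzyme ADAR at 0.750 at 48 h.

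**Figure D5:**
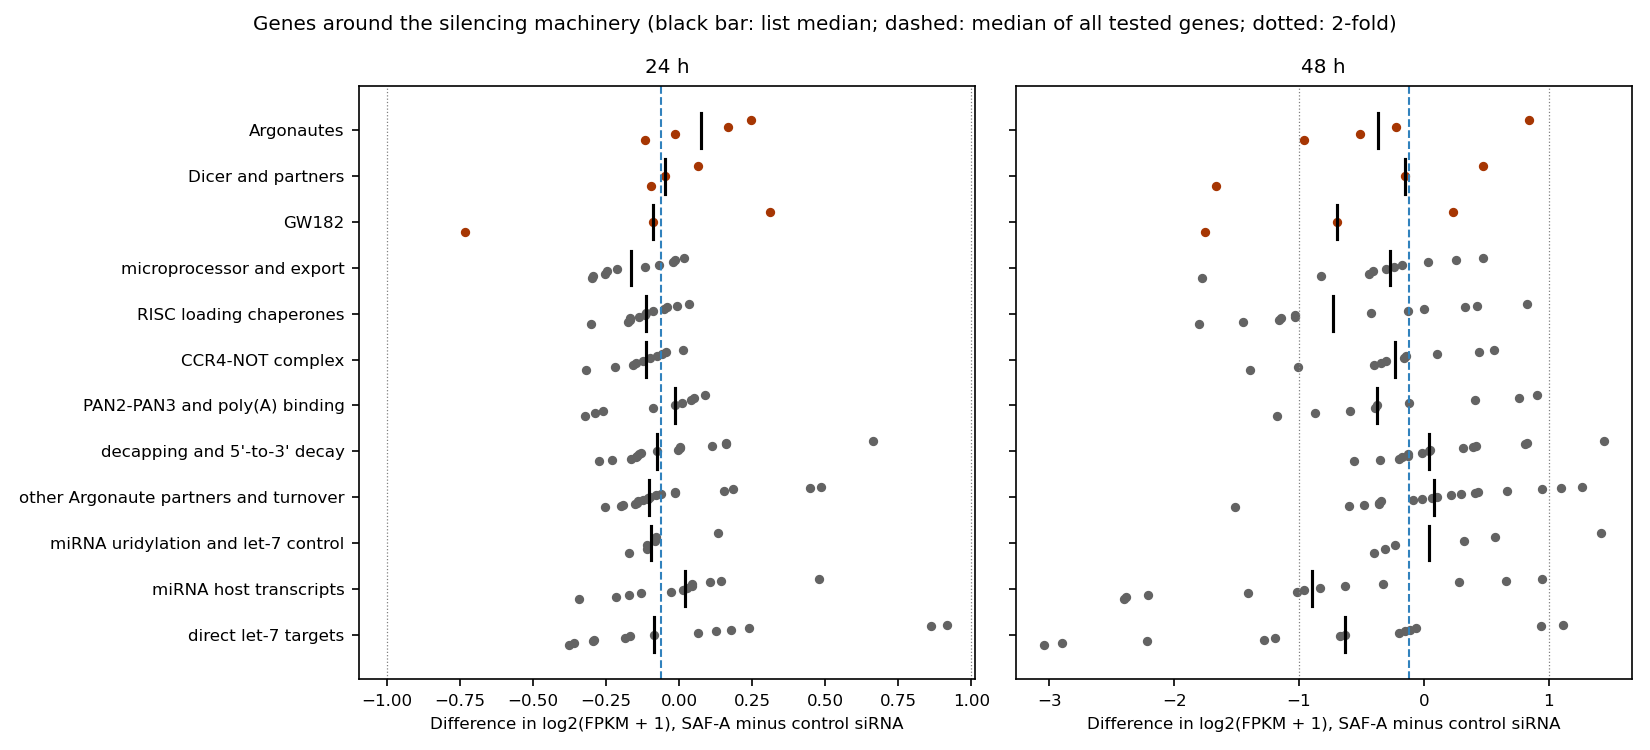
Difference in log2(FPKM + 1) between SAF-A and control siRNA at 24 h and 48 h for the tested genes of each pathway list (marker lists are not drawn), 1 point per gene, with the members in their own groups and a bar for each list's median. At 24 h no point of the pathway lists reaches 1 in either direction, and at 48 h the medians of the lists drawn run down to -0.73 for the chaperones and -0.90 for the microRNA host transcripts.

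The RNA on which the machinery acts was followed through 2 more lists. Beside both, 14.2% of all genes were higher and 20.1% lower at 48 h, on the shallow SAF-A library. Of 12 tested microRNA host transcripts, 0 were higher and 5 lower at 48 h (median -0.90), with a median of 0.02 at 24 h. MIR100HG, the host of miR-100, let-7a and miR-125b, was at 4.85 FPKM with SAF-A siRNA and 14.6 with control siRNA at 48 h, and MIR31HG at 18.1 against 12.7 at 24 h. CTDSP1, the host of miR-26b, was at 2.04 times control at 48 h (1.49 to 2.75), a difference of 0.95 that missed the call, and MCM7, the host of the miR-106b cluster, was at 0.787 at 24 h. The other 4 called lower were MIR17HG, SMC4 and, both listed at 0 in the SAF-A 48 h library, MIR155HG and MIRLET7BHG. Host transcripts do not measure the mature microRNA, which these libraries were not made to hold. Of 13 tested genes known as direct let-7 targets, DICER1 among them, none was called at 24 h (median -0.09), and 1 was higher and 5 lower at 48 h (median -0.63). CDK6, a G1 cyclin-dependent kinase, was at 22.4 against 11.4 FPKM at 24 h and at 16.6 against 7.10 at 48 h, while the RNA-binding protein IGF2BP3 was at 4.88 against 47.6 at 48 h. The phosphatase CDC25A, at 0.763 of control at 24 h, MYC and IGF2BP1 were among the others called lower at 48 h. TOB1, CNOT6L, SMC4, MIR17HG, MIR155HG, MIRLET7BHG, MYC, IGF2BP1 and the 5 chaperones were named after their values were seen.

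The genes whose pattern over the 4 libraries was most like that of DICER1, among 7695 compared, were the RNA demethylase gene FTO, the chromatin remodelling subunit gene DPF2 and PLSCR1, a phospholipid scramblase gene. Likeness was the Euclidean distance between centred log2(FPKM + 1) values, which was 0.0304, 0.0359 and 0.0399. FTO was at 7.78, 8.19, 8.62 and 7.84 FPKM in the 4 libraries in turn. With 4 libraries this describes levels that vary little.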

How the data were processed

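Ribosome-depleted RNA from 4 cultures was read as single-end reads and, per the submitters' processing notes, processed with tools that include TopHat2 2.0.10, Bowtie2 2.1.0 and Cufflinks 2.2.1, on hg19. Per the file headers, the authors deposited FPKM with 95% bounds and a status for each RefSeq transcript. The deposited transcript files also carry a score for display, which was not used. The use of strand and the handling of reads that map to several places are not given in the sources used here. No stretch of at least 50 bases of a member's transcript up to its stop codon had a copy of 98% identity elsewhere in GRCh37 (blastn 2.17.0).

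FPKM and bounds were summed over the 47338 rows by symbol (97.08% matched, RefSeq names of GRCh38.p14). Summed bounds are wider than an interval of the sum. Differences are in log2(FPKM + 1), which understates changes of low genes, over 11631 genes that averaged 1 FPKM or more. Mapped reads came from coverage divided by FPKM, and estimated reads from effective length (fragments of 200 ± 80 nt). Ratios carry exact conditional binomial (Clopper-Pearson) 95% intervals of estimated reads, which cover counting error only, since reads have no molecular identifiers, and do not cover transcript assignment. The 3′ UTR is what follows the GENCODE stop codon in the deposited exons. The 2-fold call and the counting interval were tested on simulated counts of genes with at least 5 FPKM in control 24 h. The isoform shares and the search for letters were not tested in this way. Python 3.11.15 was used.

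The members and lists were chosen with earlier results of these data known. Named genes are the members, HNRNPU, in each list the gene with the largest rise and fall at each time (mean of at least 5 FPKM), and the 3 genes most like DICER1. Alternatives were a pseudocount of 0.1, other filters (none, 5 FPKM, 300 nt), centring, rescaling to TPM or to genes of at least 300 nt, coding transcripts only, a 1.5-fold call, non-overlapping intervals, and for isoforms 20 FPKM or a share difference of 0.5. A gene of the let-7 target list is counted there but not reported here by itself.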

Additional observations from a re-analysis of the deposited data

Results flagged for a closer look

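The difference between 48 h and 24 h had opposite signs under the siRNAs in 6 members, and in 2 of them, AGO1 and TNRC6A, the counting intervals of both ratios excluded 1. AGO1 was higher at 48 h than at 24 h with control siRNA, by 0.22 in log2(FPKM + 1), and lower with SAF-A siRNA, at -0.72. TNRC6A was higher with control siRNA, by 0.44, and lower with SAF-A siRNA, at -0.58. Each direction comes from 1 library per condition, and the difference between the siRNAs was not tested. The SAF-A 48 h library, on which both falls rest, held 21 reads of AGO1 and 49 of TNRC6A.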

How the results depend on the processing

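With a pseudocount of 0.1, members called at 48 h were 1 higher (AGO4) and 4 lower (AGO1 and TNRC6C added), against 0 and 2, and those lower with time under SAF-A siRNA were 2, against 1 (all genes 16.2%, 25.2% and 22.6%). A 1.5-fold call gave 1 lower at 24 h (TNRC6A; all genes 2.27%), 1 higher and 4 lower at 48 h (24.7% and 32.5%), and 3 lower with time under SAF-A siRNA (29.5%). Rescaling to genes of at least 300 nt gave 4 lower (AGO1 and TNRC6C added) at 48 h (all genes 29.1%) and 3 lower with time under SAF-A siRNA (25.6%). TPM gave 3 lower at 48 h (21.4%). A mean of at least 5 FPKM left 0 higher with time, since AGO4 was then not tested. A minimum of 20 FPKM or a share difference of 0.5 left 0 members with shifted isoforms at 48 h and 0 with time under SAF-A siRNA. The members' sum in control 48 h was 111 as TPM. The other 109 of 124 counts, medians and sums, and 251 of 260 single differences, stayed within a set allowance. That allowance was 1.5 times for counts and, for values, the interval's width divided by 2. No called value reversed. The filters on low values and the use of coding transcripts only cannot move a member's own difference. The interval is also wide for the few reads of the SAF-A 48 h library, so these totals say little about robustness. The members' median ranged from -0.18 (TPM) to 0.03 (centred) at 24 h and from -0.62 (300 nt scale) to -0.22 (mean of at least 5 FPKM) at 48 h. TNRC6A stayed lower under every setting run, from -0.90 to -0.67 at 24 h and from -2.08 to -1.75 at 48 h. As TPM, the median of all genes at 24 h moved from -0.06 to -0.22, and AGO2 and TNRC6B were then at 0.07 and 0.17. With genes of at least 300 nt as the scale, the 48 h median moved from -0.12 to -0.35. Time differences under SAF-A siRNA changed sign for DICER1 (0.12 as TPM) and TNRC6B (-0.01 on the 300 nt scale), and that of PRKRA under control siRNA was 0.02 as TPM. No paired analysis was possible because each group held 1 library. Depth limits every value of the SAF-A 48 h library.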
